A study of Mus musculus with 2 samples.

Results

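Small nucleolar RNAs (snoRNAs) and small Cajal body RNAs (scaRNAs) were examined in total RNA from mouse heart. The genes described are those whose annotated transcript type is snoRNA or scaRNA and whose level was 5 TPM (counts per effective length, scaled to the same total in each library) or more in both libraries. This rule kept 49 of 1558 annotated snoRNA and scaRNA genes, in a table of 55536 genes. Of the 49 genes, 39 are typed as snoRNA and 10 as scaRNA. By symbol, 4 are Snord genes (box C/D), 10 are Snora genes (box H/ACA) and 4 are Scarna genes. The other 31 carry symbols that name no class, namely 30 with a Gm symbol and Rnu3a, the gene of U3. The levels chose the genes, so they are given as a description with no test.

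The series holds 1 group of 2 libraries from the heart of male B6CASTF1/J mice, F1 hybrids between C57BL/6J and CAST/EiJ. The mice were 18 to 20 months old. The input per library was 300 ng of total RNA, ERCC control RNAs had been added, and no treatment or other genotype is labelled. The labels number the libraries as biological replicates 1 and 2 and give both the same donor identifier, so whether the spread between them includes separate animals is not stated. No p-value was computed from them.

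snoRNAs guide chemical changes of ribosomal RNA in the nucleolus. Box C/D RNAs carry a C box near the 5′ end and a D box near the 3′ end, bind fibrillarin and guide 2′-O-methylation. Box H/ACA RNAs fold into hairpins, end in an ACA motif, bind dyskerin and guide pseudouridylation. scaRNAs use the same boxes, some of them both kinds, and act on spliceosomal RNAs in Cajal bodies. Most snoRNAs of vertebrates are cut out of introns of host genes, while U3 and a few others have promoters of their own.

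The 4 RNAs below show the box motifs of the 2 named classes in pairs of RNAs that share a host gene. Sequences are from the GENCODE transcripts of GRCm38, the build of the files (mm10), written 5′ to 3′. For the box C/D pair Snord15b (chr7:99479563-99479707, minus strand) and Snord15a (chr7:99482785-99482932, minus strand), capitals mark the C box letters TGATGA and the D box letters CTGA. For the box H/ACA pair Snora73b (chr4:132352322-132352526, minus strand) and Snora73a (chr4:132352775-132352979, minus strand), capitals mark the ACA.
Snord15b: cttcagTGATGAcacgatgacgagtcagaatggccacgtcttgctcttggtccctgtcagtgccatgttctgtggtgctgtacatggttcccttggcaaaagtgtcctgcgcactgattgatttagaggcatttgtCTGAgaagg
Snord15a: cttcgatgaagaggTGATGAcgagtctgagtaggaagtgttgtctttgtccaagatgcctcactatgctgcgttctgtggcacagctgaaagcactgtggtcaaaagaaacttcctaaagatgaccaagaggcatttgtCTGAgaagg
Snora73b: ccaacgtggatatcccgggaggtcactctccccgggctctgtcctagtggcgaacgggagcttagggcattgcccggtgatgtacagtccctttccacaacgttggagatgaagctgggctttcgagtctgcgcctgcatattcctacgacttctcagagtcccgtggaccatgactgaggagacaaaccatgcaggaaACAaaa
Snora73a: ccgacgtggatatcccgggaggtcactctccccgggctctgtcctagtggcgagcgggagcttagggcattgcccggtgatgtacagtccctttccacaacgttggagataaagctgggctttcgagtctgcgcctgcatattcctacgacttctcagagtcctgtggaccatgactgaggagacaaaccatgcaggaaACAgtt
The Snord15 pair lies inside Rps3, a ribosomal protein gene, and is 66.0% identical. The Snora73 pair lies in Snhg3, a non-coding host gene. Both RNAs have 205 bases, differ at 7 positions (96.6% identity) and share no stretch as long as a 100-base read, the longest run of equal bases being 56.

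Of the members with Gm symbols, Gm26447 (chr16:23111301-23111429, plus strand, in Eif4a2) and Gm22988 (chr11:69669635-69669778, minus strand, in Eif4a1) had the highest TPM. Their capitals mark an ACA near the 3′ end.
Gm26447: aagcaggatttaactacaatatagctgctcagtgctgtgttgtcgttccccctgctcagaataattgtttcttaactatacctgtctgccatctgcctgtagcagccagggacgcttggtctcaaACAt
Gm22988: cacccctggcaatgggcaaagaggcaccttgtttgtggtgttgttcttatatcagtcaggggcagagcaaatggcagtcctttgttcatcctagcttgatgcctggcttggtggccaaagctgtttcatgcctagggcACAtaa
The Scarna genes with the most counts were Scarna2 (chr3:108554338-108554751, minus strand) and Scarna10 (chr6:125186359-125186683, minus strand), of which the first and the last 60 bases are shown. In Scarna10 the capitals mark a C and a D box, and in Scarna2 the D box letters, since no TGATGA starts within 20 bases of its 5′ end.
Scarna10, first 60 bases: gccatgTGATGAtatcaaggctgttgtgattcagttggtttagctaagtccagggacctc
Scarna10, last 60 bases: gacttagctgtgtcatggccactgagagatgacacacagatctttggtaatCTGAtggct
Scarna2, first 60 bases: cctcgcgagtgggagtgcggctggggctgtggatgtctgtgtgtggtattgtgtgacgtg
Scarna2, last 60 bases: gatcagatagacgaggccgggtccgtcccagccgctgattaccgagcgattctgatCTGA

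Leaving out the ERCC control RNAs, the expected counts over all genes summed to 38858481 for replicate 1 and to 37281459 for replicate 2. The 49 genes took 11289 counts in replicate 1 and 9363 in replicate 2. That is 290.5 CPM (counts scaled by the library total) in replicate 1 (95% Clopper-Pearson interval 285.2 to 295.9) and 251.1 in replicate 2 (246.1 to 256.3). These intervals cover counting error only. The heart muscle markers Myl2, Myh6, Actc1, Tnnt2 and Tnni3 had mean levels between 3978 and 8983 TPM, while the skeletal muscle markers Myh4 and Tnnt3 were at 0 and 0.165 TPM. The skeletal alpha-actin gene Acta1, which heart also expresses, had 204.6 TPM. Both white adipocyte markers were higher in replicate 1. Adipoq had 5.98 TPM in replicate 1, against 1.15 TPM in replicate 2, and Cfd had 20.0 TPM in replicate 1, against 2.63 TPM in replicate 2. Hbb-bs and Hba-a1 of red blood cells also had positive log2 ratios, of 0.56 and 0.23. In bulk tissue, fewer cells of a type and less RNA per cell cannot be told apart, and the part of these markers in the values below was not tested.

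Transcript length separated the measured from the unmeasured RNAs. In the authors' gene tables, the effective length of a transcript above 99 bases was its length minus 99, which is the number of positions where a 100-base read can start. All 462 annotated snoRNA and scaRNA genes of 99 bases or fewer had an effective length of 0 and no counts. They include 87 of the 98 Snord genes, whose median length was 84 bases, 0 of the 42 Snora genes, whose median was 132.5 bases, and 2 of the 9 Scarna genes. Of the 11 Snord genes with a read start, 4 reached 5 TPM in both libraries, beside 10 of 42 Snora genes, 4 of 7 Scarna genes and 31 of 1036 genes with other symbols. Together the 49 were 4.47% of the 1096 genes with a read start.

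Long RNAs were detected more often. The share detected was 3.10% of the 1031 genes of 100 to under 150 bases, 15.4% of the 26 genes of 150 to under 200 bases and 33.3% of the 39 genes of 200 bases or more. These shares pool the symbol classes. Of the genes with other symbols, 2.99% of 1036 were detected, beside 23.8% of the 42 Snora genes, so length and class were not separated. The shortest member, Snora26, has 121 bases and 22 read starts, and the longest, Scarna2, has 414 bases and 315. The TPM threshold therefore stood for different numbers of reads. In replicate 1, 5 TPM equalled 3.39 counts for Snora26 and 48.6 counts for Scarna2.

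**Figure D1:**
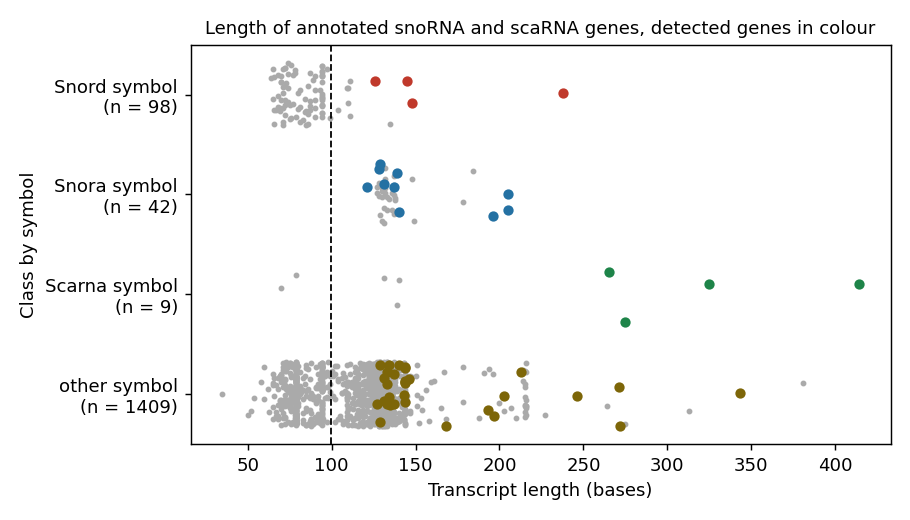
Transcript length in bases of all 1558 annotated snoRNA and scaRNA genes by symbol class, with the 49 detected genes in colour and the others in grey. The dashed line stands at 99 bases, and no gene left of it was detected, which leaves 11 Snord genes on the right.

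The 4 Snord genes were led by Snord15b, whose RNA guides methylation of 28S ribosomal RNA. It had 337.2 TPM in replicate 1 and 265.1 TPM in replicate 2 (478.67 and 373.81 expected counts). Snord15a, the second copy in Rps3, had 48.9 TPM in replicate 1 and 28.0 TPM in replicate 2. Snord15b thus stood 6.89-fold above Snord15a in replicate 1 and 9.48-fold above it in replicate 2. Snord22, a copy of U22, which the frog needs to make 18S ribosomal RNA, had 42.9 TPM in replicate 1 and 43.2 TPM in replicate 2. It lies in Snhg1, a host gene with no known protein product. Snord17, in the sorting nexin gene Snx5, had 36.8 TPM in replicate 1 and 30.3 TPM in replicate 2.

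Among Snord genes that have read starts and were left out, Snord118, the gene of U8, which is needed for 28S ribosomal RNA, had 1 count in each library. Snord13 had 0 counts in replicate 1 and 2 counts in replicate 2, and with only 5 read starts those 2 counts gave 13.1 TPM. Snord67, Snord89, Snord90, Snord23 and Snord8 were at 0 counts in both libraries. A count of 0 allows up to 3 counts, or 0.0772 CPM in replicate 1 and 0.0805 CPM in replicate 2. The genes at 0 have 109 to 111 bases and so few read starts that 3 counts would exceed 5 TPM. Their absence from the set therefore does not show a level below the threshold.

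The 10 Snora genes fell into a group of 3 long RNAs and a group of 7 shorter ones. Snora73b had 298.2 TPM in replicate 1 and 238.1 TPM in replicate 2, and Snora73a had 216.1 TPM in replicate 1 and 158.0 TPM in replicate 2. These copies of U17 act in the processing of 18S ribosomal RNA, unlike most H/ACA RNAs, which guide pseudouridylation. Snora74a (U19), 196 bases long and inside the non-coding gene AC121821.1, had 258.4 TPM in replicate 1 and 188.2 TPM in replicate 2. The 3 RNAs are 196 to 205 bases long, and each was above 150 TPM in both libraries.

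The 7 shorter Snora RNAs have 121 to 140 bases, and each was at 34.2 TPM or less in both libraries. Snora68 had 32.03 TPM in replicate 1 and 34.2 TPM in replicate 2. Snora44, in Snhg12, had 32.2 TPM in replicate 1 and 31.3 TPM in replicate 2. Snora78, in Snhg9, had 19.0 TPM in replicate 1 and 7.87 TPM in replicate 2, from 17 and 7 counts. Snora21, in Rpl23, had 10.2 TPM in replicate 1 and 11.2 TPM in replicate 2. Snora26, in Dancr, had 8.70 TPM in replicate 1 and 11.6 TPM in replicate 2. Snora43, with no host on its strand, had 10.5 TPM in replicate 1 and 6.52 TPM in replicate 2. Snora7a, in Rpl32, had 9.06 TPM in replicate 1 and 5.27 TPM in replicate 2. Apart from Snora68 and Snora44, these short RNAs rested on 5.90 to 17 counts per library.

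The 4 Scarna genes are the longest RNAs of the named classes, at 265 to 414 bases. Scarna2, whose human counterpart is a box C/D RNA that guides methylation of U2 spliceosomal RNA, had more counts than any other member, with 2970 in replicate 1 and 2321 in replicate 2. Its level was 305.6 TPM in replicate 1 and 240.3 TPM in replicate 2. Scarna10 had 1665 counts in replicate 1 and 1666 in replicate 2, or 238.8 and 240.5 TPM. Its human counterpart carries both kinds of boxes and acts on U5 spliceosomal RNA. Scarna10 is typed as snoRNA in the annotation, although its symbol puts it among the scaRNAs. Scarna13, in Snhg10, had 44.9 TPM in replicate 1 and 45.0 TPM in replicate 2. Scarna6, in the autophagy gene Atg16l1, had 29.1 TPM in replicate 1 and 25.9 TPM in replicate 2.

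The genes named by no class spanned the whole range. Gm26447, in the translation factor gene Eif4a2, had the highest TPM of all 49 in both libraries, with 536.8 TPM in replicate 1 and 355.0 TPM in replicate 2. Gm22988, in Eif4a1, had 177.0 TPM in replicate 1 and 183.7 TPM in replicate 2. Gm22009, a 343-base scaRNA in Kpna4, had 110.6 TPM in replicate 1 and 91.3 TPM in replicate 2, from 833 and 683 counts. Gm22486, in Ptcd3, had 85.3 TPM in replicate 1 and 79.0 TPM in replicate 2. Each of these 4 therefore stood above 75 TPM in both libraries, and all other genes with Gm symbols were below that in both.

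Gm25788 and Gm22154, a pair in the poly(A)-binding protein gene Pabpc4 that is 96.9% identical, averaged 64.5 ± 10.5 TPM and 38.1 ± 4.85 TPM (SD, n = 2). Gm26397, in Tomm20, averaged 55.3 ± 9.60 TPM, and Gm23262, in Eif4g2, 45.9 ± 11.1 TPM (SD, n = 2). Gm25492, Gm25395, Gm26448 and Gm22422 had means between 30.3 and 38.5 TPM. Gm23119, Gm23442, Gm25791, Gm25989, Gm23547, Gm25835, Gm26083, Gm26079, Gm22442, Gm25291, Gm24336 and Gm25394 had means between 11.9 and 28.5 TPM. Gm24727, Gm25117, Gm24119, Gm25776, Gm25820 and Gm23946 were lowest, with means between 6.81 and 9.76 TPM. Rnu3a, the gene of U3, which directs early cuts of the ribosomal RNA precursor, had 9.95 TPM in replicate 1 and 13.5 TPM in replicate 2.

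**Figure D2:**
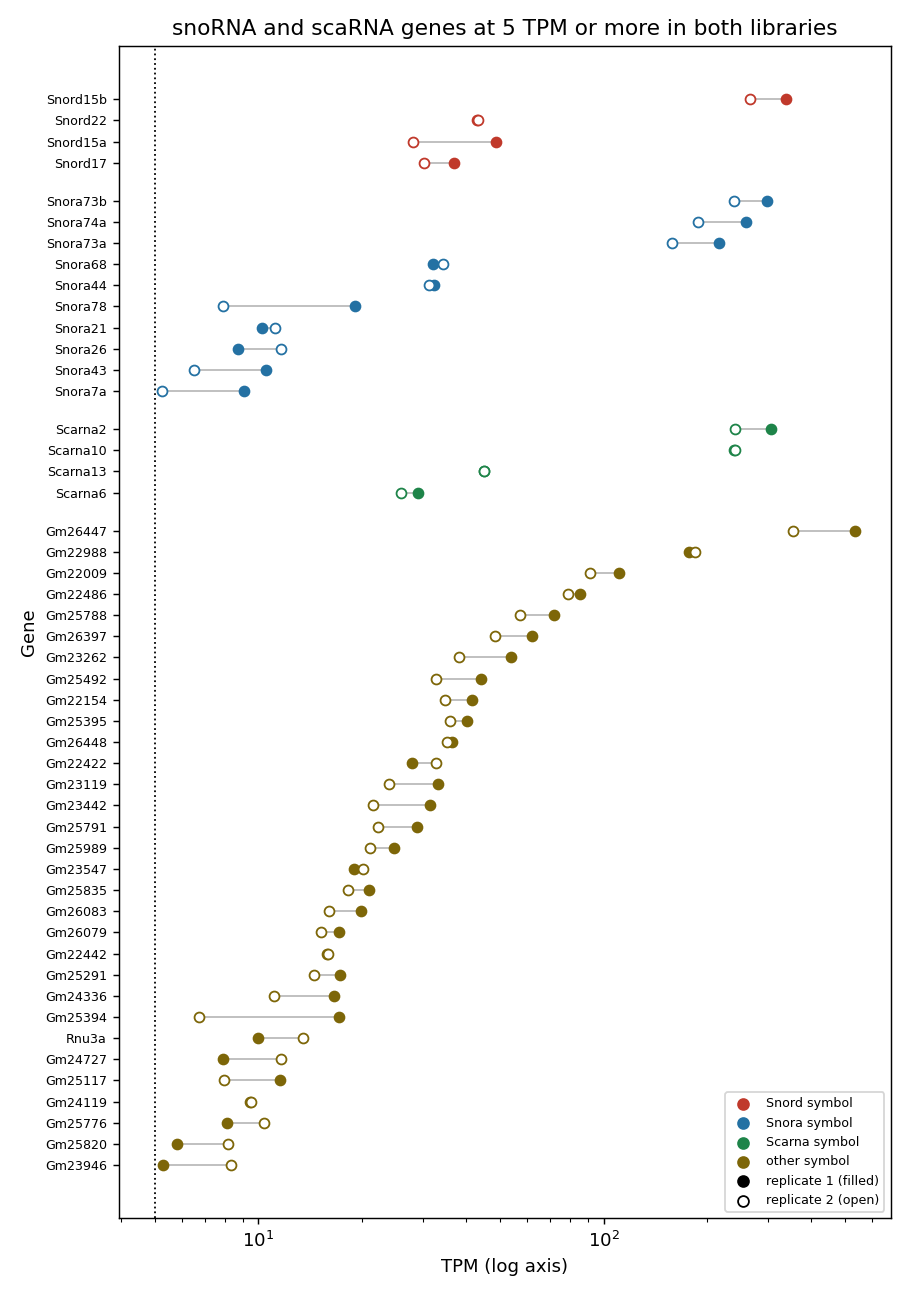
TPM (log axis) of each of the 49 genes in replicate 1 (filled) and replicate 2 (open), grouped by symbol class, with the threshold of 5 TPM dotted. In the Snord, Snora and Scarna groups 1 to 3 genes stand above 150 TPM and the others are below 50 TPM.

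The 5 genes just inside the threshold were Snora7a, Gm23946, Gm25820, Snora43 and Gm25394, whose lower value of both libraries was 5.27, 5.29, 5.79, 6.52 and 6.72 TPM. Just outside stood Gm22270 at 4.91, Gm23297 at 4.63, Gm24233 at 4.25, Gm24620 at 4.18 and Snora57 at 3.99 TPM. These values rest on few counts, such as 4 in replicate 1 and 5 in replicate 2 for Gm23297. In all, 20 genes outside the set reached 5 TPM in 1 library, 13 members had fewer than 20 counts in a library, and 15 had 100 counts or more in both. In the authors' deposited table, the lower bound of the TPM interval was under 5 in at least 1 library for 11 members.

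A few RNAs made up most of the signal. The 8 genes with the highest TPM in each library held 65.1% ± 1.28 of the summed TPM of the 49 genes and the 8 with the most counts 78.0% ± 1.24 of their counts (SD, n = 2). The summed TPM was 3586 in replicate 1 and 2910 in replicate 2, or 0.359% and 0.291% of all TPM. Snord genes held 12.8% ± 0.280 of it and Snora genes 24.4% ± 0.815, while Scarna genes held 18.1% ± 1.22 and genes with other symbols 44.7% ± 0.122 (SD, n = 2). By expected counts, which are not divided by length, the shares were 6.41% ± 0.290 for Snord, 21.8% ± 1.40 for Snora, 45.6% ± 1.45 for Scarna and 26.2% ± 0.240 for other symbols (SD, n = 2). The Snord share was below the Snora share on both scales and in both libraries. Only 11 of the 98 Snord genes have a read start, beside all 42 Snora genes, and genes with other symbols are in neither share. The shares therefore compare the measurable named genes, not the box classes as a whole. Of the shares by symbol, the Scarna one changed most between the scales.

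The order of the leading genes differed between scales and libraries. By TPM, Gm26447 and Snord15b were first and second in both libraries, while Scarna10 ranked 6 in replicate 1 and 3 in replicate 2. This order rests on effective lengths of 30 bases for Gm26447, 106 for Snora73b and 315 for Scarna2. The second set of transcript tables for these libraries gave them 27.9, 38.3 and 120.4 bases in replicate 1. The order of the same counts under those lengths was not computed, so the first place of Gm26447 holds only for the lengths used here. By counts, Scarna2, Scarna10 and Snora73b led in both libraries. Scarna2 and Snora73b had neighbouring levels, with 305.6 and 298.2 TPM in replicate 1 and 240.3 and 238.1 TPM in replicate 2. Scarna10 was below Snora74a in replicate 1 (238.8 and 258.4 TPM) and above it in replicate 2 (240.5 and 188.2 TPM). Over the 49 genes, Spearman's rho between the libraries was 0.95 for TPM and 0.97 for counts, a description over genes of the same 2 libraries.

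Because 31 genes carry no class in their symbol, each transcript was searched for the box letters on its own strand. The search took TGATGA starting within the first 20 bases as a C box, CTGA starting within the last 20 bases as a D box, and ACA starting 4 to 8 bases from the 3′ end as an ACA box. Both a C and a D box were found in 10 of the 49 genes (20.4%), against 1.55% of the 1096 annotated genes with a read start and 20.2% of all 1558 annotated genes. These were Snord15b, Snord15a, Snord17, Scarna10, Scarna6, Gm22009, Gm22486, Gm25395, Gm23547 and Gm25835. An ACA was found in 32 genes (65.3%), against 61.0% of the 1096 and 45.8% of the 1558. No gene of the 49 held both patterns, and Scarna2, Gm23262, Snord22, Snora44, Gm23119, Gm24336 and Rnu3a held neither. The genes with both C and D boxes held 27.8% ± 1.21 of the summed TPM, those with an ACA 58.4% ± 1.22 and those with neither 13.8% ± 0.0076 (SD, n = 2). By expected counts the shares were 35.2% ± 2.17, 36.7% ± 1.13 and 28.1% ± 1.04 (SD, n = 2). On that scale the C and D box share was below the ACA share in replicate 1 (33.7% and 37.5%). It was above the ACA share in replicate 2 (36.7% and 35.9%). These are matches of letters and assign no class.

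Of the 49 genes, 45 (91.8%) lay inside a longer gene on the same strand, against 270 of the 1047 other annotated genes with a read start (25.8%) and 382 of the 462 with no read start (82.7%). The exceptions were Scarna2, Gm23119, Snora43 and Rnu3a. The 45 genes lay in 40 hosts, 36 of them in protein-coding hosts and 9 in non-coding ones, beside 217 and 53 of the 270 other genes. The host belonged to the ribosomal protein, eIF or Pabpc genes for 12 of them, among them Eif4a2, Eif4a1, Eif4g2, Rps3, Rpsa and Pabpc4, beside 24 of the 270 other genes and 37 of the 382 with no read start. The median host level was 12.1 TPM, against 5.0 TPM for hosts of the 270 other genes.

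Spearman's rho between the TPM of the small RNA and that of its host was 0.02 over 45 genes that share these libraries. This is a description only, since the genes were selected on their TPM and those under 5 TPM are missing. Gm24119, in the phosphate carrier gene Slc25a3, averaged 9.51 ± 0.0424 TPM, while Slc25a3 had 1176 TPM in replicate 1 and 931 TPM in replicate 2. Scarna13 had about 45 TPM in both libraries, while Snhg10 had 0.690 TPM in replicate 1 and 0.420 TPM in replicate 2. Snora73b, at 268.2 ± 42.5 TPM (SD, n = 2), lay in Snhg3, which had 4.66 TPM in replicate 1 and 6.14 TPM in replicate 2.

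RNAs of the same host also differed. Gm22988 stood 8.48-fold above Gm25835 in replicate 1 and 10.1-fold above it in replicate 2. Both lie in Eif4a1 and have 144 bases. Gm25788 stood 1.73-fold above Gm22154 in replicate 1 and 1.65-fold in replicate 2. Snora73b stood 1.38-fold above Snora73a in replicate 1 and 1.51-fold in replicate 2, and Gm25395 stood 1.38-fold above Scarna6, its neighbour in Atg16l1, in replicate 1 and 1.39-fold in replicate 2. In each of these pairs, and in the Snord15 pair, the same RNA was higher in both libraries. All 45 read starts of Gm22988 and all 46 of Snord15b also occur in transcripts of their hosts, while 0 of Gm25835 and 0 of Snord15a do. In the Snora73 pair it is the lower RNA, Snora73a, that shares read starts with its host (60 of 106). Gm25788, Gm22154, Gm25395 and Scarna6 share 0. The part of host reads in these folds was not tested.

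**Figure D3:**
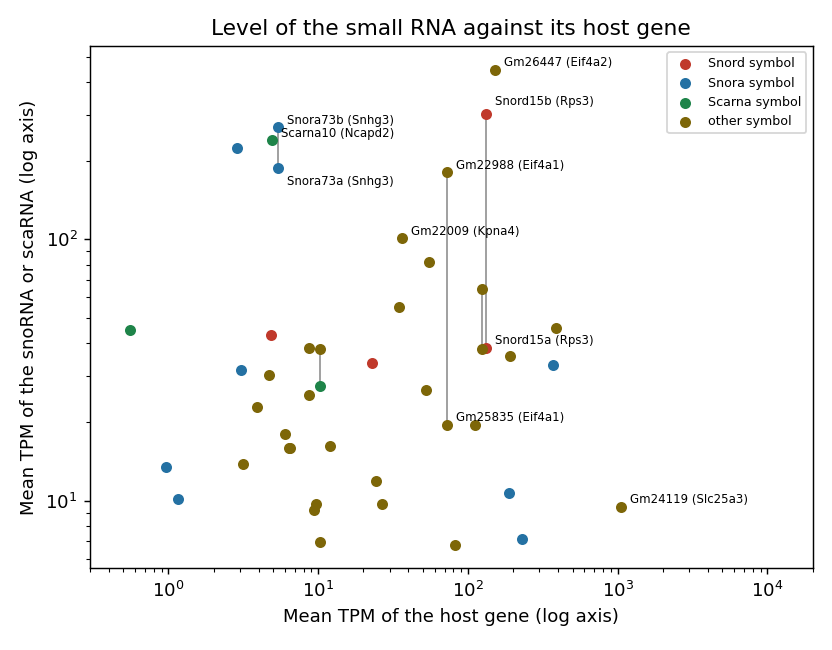
Mean TPM of the 45 genes that lie in a host gene (vertical, log axis) against mean TPM of the host (horizontal, log axis), coloured by symbol class, with grey lines joining genes of the same host. Spearman's rho over the points was 0.02, and the lines for Rps3 and Eif4a1 are the longest.

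Reads of a small RNA can also come from transcripts that hold its sequence. For 28 genes no 100-base stretch occurred in another annotated transcript, for 8 some stretches did, and for 13 every stretch did. Those 13 include Gm26447, Snord15b, Snora74a and Gm22988, so their counts rest on how the authors' quantification divided reads between entries. The search took exact matches only. Snora73b, among the 28, still had fractional counts, of 975.52 in replicate 1 and 773.85 in replicate 2. Some of its reads were therefore divided between entries too. How far this bears on its ratio to Snora73a was not tested. The overlapping transcripts are mostly retained-intron forms of the host and most were given fewer counts than the small RNA. Gm26447 was given 496.89 counts in replicate 1 and 326.5 in replicate 2, while the 2 overlapping Eif4a2 transcripts were given 8.63 to 14.2 in replicate 1 and 3.65 to 5.40 in replicate 2. Snord15b was given 478.67 counts in replicate 1 and 373.81 in replicate 2, while the Rps3 retained-intron transcript was given 27.9 in replicate 1 and 15.4 in replicate 2. For Gm25791, in Taf1d, the division was closer to even, with 33.7 counts in replicate 1 and 25.8 in replicate 2, while the overlapping Taf1d transcript was given 31.7 in replicate 1 and 19.7 in replicate 2. Snora7a was given 11.46 and 6.62 counts, beside 10.49 and 8.47 for the overlapping Rpl32 transcript. Its 5.27 TPM in replicate 2, just inside the threshold, therefore rests on that division. Snora26 was below 1 overlapping Dancr transcript in each library, with 5.90 beside 7.25 counts in replicate 1 and 7.85 beside 12.77 in replicate 2.

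Rnu3a, Gm25820 and Snora43 are each annotated at the same place under a second gene identifier, and in each case the other entry was listed at 0 in both libraries. The authors' deposited table gave Rnu3a a TPM interval of 0.0016 to 10.6 in replicate 1 and 0.0279 to 13.9 in replicate 2. Gm24727 shares 22 of its 45 stretches with Gm23123. These 4 levels are therefore uncertain.

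The second set of transcript tables deposited for the same libraries listed 45 of the 49 genes at 0 in both libraries. Scarna2 had 289.4 TPM in replicate 1 and 227.3 TPM in replicate 2 there, from 1176 and 845 estimated counts. Gm22009 had 102.5 TPM in replicate 1 and 83.1 TPM in replicate 2. Scarna10 had 18.8 TPM in replicate 1 and was at 0 in replicate 2, and Gm25395 had 0 in replicate 1 and 0.568 TPM in replicate 2. For Scarna2 and Gm22009 the TPM of both sets of tables differed by less than the spread between the libraries, while the box C/D and H/ACA genes by symbol had no counts in the second set.

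The 2 libraries were compared as the log2 ratio of replicate 1 over replicate 2 with edgeR's TMM scaling and a prior count of 2. Of the 49 genes, 1 differed by 2-fold or more, beside 1.67% of the 12189 genes whose mean reached 1 TPM and 0.43% of 7438 genes at 5 TPM or more in both libraries. By direction, 1 of the 49 was higher in replicate 1, beside 1.13% of the 12189 and 0.309% of the 7438 genes, and 0 were lower, beside 0.533% and 0.121%. That gene was Gm25394, with 18 counts in replicate 1 and 7 in replicate 2, a log2 ratio of 1.04 and a 95% counting interval of −0.10 to 2.73. Snora78 was close to it at 0.96. The ratios of the 49 genes ran from −0.71 for Gm23946 to 1.04, with a median of 0.12, beside a median of 0.03 for the 7438 genes. Positive ratios were found for 30 of the 49 genes (61.2%) and for 57.3% of the 7438 genes. With spike-in scaling, positive ratios were found for 53.1% of the 49 genes and 32.5% of the 7438, and with the TPM ratio for 67.3% and 81.1%.

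The 95% counting interval of the ratio left out 0 for 9 genes, which is 9 of the 21 genes with a mean of 50 counts or more and 0 of the 28 with fewer. It did so for 42.2% of the 7438 genes and for 35.1% of the 12189, whose counts differ from those of the 49. Among the 5898 of the 7438 genes within the range of mean counts of the 49, 0.475% were past 2-fold. Only the lowest and highest mean counts set that range, so the 5898 genes are not matched in count to the 49. The ratio was positive for 8 of the 9, namely Snord15a at 0.66, Gm26447 at 0.47, Snora74a at 0.33, Snora73a at 0.32, Snord15b at 0.22, Scarna2 at 0.22, Snora73b at 0.20 and Gm22009 at 0.15. Scarna10 had a ratio of −0.14, with an interval of −0.24 to −0.04. Spearman's rho between the ratio of the small RNA and that of its host was −0.03 over 45 genes, a description within the same libraries. Snhg3 had a ratio of −0.57, opposite in sign to Snora73b and Snora73a. The Snhg3 ratio rests on 50.52 counts in replicate 1 and 69.63 in replicate 2, with an interval of −1.14 to −0.05. Of the 106 read starts of Snora73a, 60 also occur in Snhg3. The Snhg3 transcript that overlaps Snora73a was given 6.45 counts in replicate 1 and 20.58 in replicate 2. How far the division of these reads bears on the opposite sign was not tested.

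**Figure D4:**
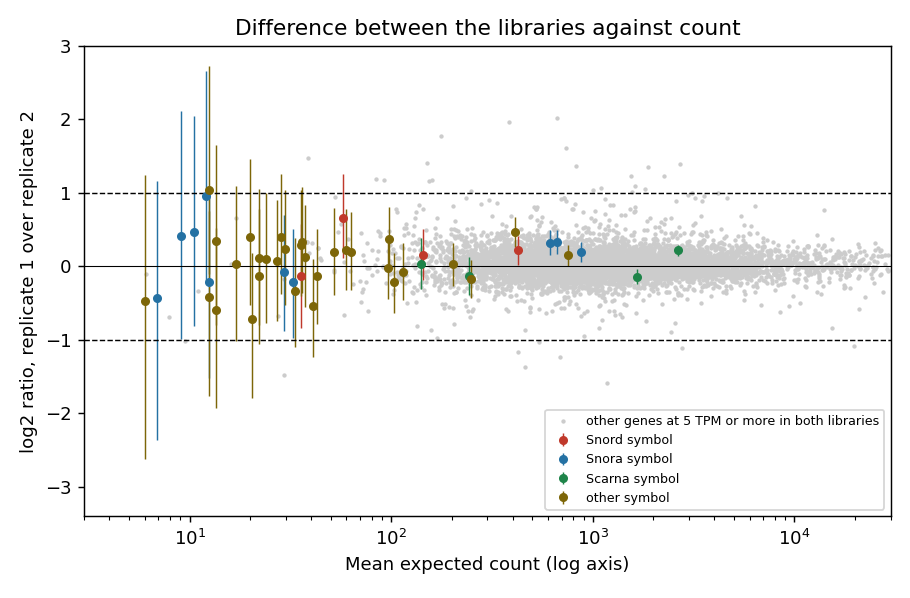
The log2 ratio between the libraries (replicate 1 over 2) plotted against mean expected count (log axis) for the 49 genes, coloured by symbol class with 95% counting intervals, and for the other genes at 5 TPM or more in both libraries (grey). Dashed lines mark 2-fold, and the 28 coloured points under 50 counts all have intervals that cross 0.

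The proteins that work with these RNAs were read from lists of known members. All 4 core proteins of box C/D particles were at 1 TPM or more in both libraries. Snu13 had 19.1 TPM in replicate 1 and 20.6 TPM in replicate 2, Nop58 12.1 TPM in both, the methyltransferase Fbl 11.7 TPM in replicate 1 and 11.3 TPM in replicate 2, and Nop56 11.7 TPM in replicate 1 and 8.58 TPM in replicate 2. All 4 core proteins of H/ACA particles were also at 1 TPM or more. Nop10 averaged 20.7 ± 0.255 TPM, Nhp2 7.84 ± 1.35 TPM, the pseudouridine synthase Dkc1 7.13 ± 0.354 TPM and Gar1 5.52 ± 0.601 TPM (SD, n = 2). The median was 11.8 TPM over the C/D proteins and 7.48 TPM over the H/ACA proteins.

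Other lists were at similar levels. Of the assembly factors, 9 of 10 reached 1 TPM in both libraries, the exception being Shq1, an H/ACA assembly factor, with 1.32 TPM in replicate 1 and 0.990 TPM in replicate 2. All 8 Cajal body and cap proteins reached it, with Ncbp2 of the cap-binding complex highest at 10.02 TPM and coilin (Coil) lowest at 1.82 TPM. So did all 10 proteins of the U3 processome, led by Imp3 at 21.1 TPM, and all 7 measured enzymes that trim RNA 3′ ends, led by the exosome subunit Exosc10 at 12.4 TPM. Of the 14 measured non-coding host genes, 11 reached 1 TPM in both libraries, and Gas5, which holds many box C/D RNAs, was highest at 24.4 TPM. Snhg9, Snhg11 and Snhg17 did not reach it in both. In these lists 0 genes with a mean of 1 TPM or more differed by 2-fold between the libraries, beside 1.67% of all 12189, and the medians of their log2 ratios ran from −0.09 to 0.12.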

How the data were processed

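Total RNA of 2 heart libraries (1 group) was measured. The authors deposited gene tables with expected counts and TPM, and a second set of transcript tables with estimated counts and TPM, per the file headers. Assembly mm10 is given per the labels, with annotation GENCODE M21 in the deposited file list. The aligner and quantifier are not given in the sources used here. TPM divides by effective length, so a count weighs more in shorter transcripts, and RNAs of 99 bases or fewer got no value.

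Genes were joined by identifier, and 96 spike-ins and 26249 other entries that name no gene (4.97e-06% of counts in replicate 1 and 2.67e-06% in replicate 2) were left out. Rounded expected counts were scaled with edgeR 4.0.16 (TMM, prior count 2, R 4.3.3), and a difference of 2-fold or more was called. Alternatives used total counts, DESeq2 1.42.0 size factors, ERCC spike-ins, the TPM ratio, a prior count of 0.5, other thresholds and the second tables. Intervals (95%, Clopper-Pearson, scipy 1.17.1) cover counting error only. Hosts, shared 100-base stretches and box letters came from the GENCODE transcripts and annotation (Biopython 1.88). On simulated data with 200 changed genes among 12189 genes, the comparison of replicate 1 over replicate 2 recovered 96.8% of the 95 genes changed by a log2 ratio of 1.5 and 98.1% of the 105 changed by 2. It put 24 unchanged genes past 2-fold, while 203 of the 12189 genes were past it in the real libraries. The simulation gave all genes the same fixed spread. It does not give the recovery for the 49 genes, of which 28 had under 50 counts.

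The genes and lists were chosen with earlier results of these data known. Named genes were the 15 of highest mean TPM, every Snord and Scarna gene, those differing by 2-fold, and the 5 on each side of the threshold, with hosts and list genes of highest level. The remaining genes are named to account for each of the 49, a choice made after their values were seen. The name of 1 host gene is not reported here.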

Additional observations from a re-analysis of the deposited data

How the results depend on the processing

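The number of genes in the set, 49, was 75 at a threshold of 1 TPM, 37 at 10 TPM and 2 by the TPM of the second tables. With the threshold applied to only 1 library it was 58 to 60. The Snord share of summed TPM, 12.8%, was 12.4% at 1 TPM, 13.3% at 10 TPM, 6.41% by expected counts and 0% by both the TPM and the counts of the second tables. Without either replicate it ran from 12.6% to 13.0%. In an alternative added after seeing the data, the share was 9.72% by counts per transcript base. The genes with both C and D box letters, also taken after seeing the data, held 27.8%. That is a different set, since it includes Scarna10, Scarna6 and genes with Gm symbols and leaves out Snord22. The count of genes past 2-fold, 1, was 2 with total counts, with the TPM ratio and with a prior count of 0.5. It was 0 with spike-in scaling. When the TPM filter was dropped, it was 23 among the 131 annotated genes with a count. The share over all genes without that filter was not computed, so the 23 has no background and is not read as a trait of these RNAs. With the filter, the count was 1 with DESeq2 size factors and with 20 counts over both libraries. It was 1, in an alternative added after seeing the data, in the 28 genes with no shared stretch. It was also 1 among the 4 genes that the second tables measured, but there the gene was Scarna10, with 45 estimated counts in replicate 1 and 0 in replicate 2, and Gm25394 was listed at 0. The median log2 ratio, 0.12, was 0.19 with total counts, 0.029 with spike-ins, 0.25 with the TPM ratio and 0.25 over the 4 genes of the second tables. The TPM ratio moved the median of all 12189 genes by 0.13. The median of the 49 genes stayed 0.08 to 0.10 above that of genes at 5 TPM under all 5 scalings of the gene tables. A change of scaling shifts all genes nearly alike, so it could hardly alter this gap and is no check of it. The cause of the differences between settings was not tested beyond what each setting changes. Depth limits the 28 genes under 50 counts. No paired analysis was possible because there is only 1 group.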

Other observations

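Some annotated H/ACA genes outside the set lie in hosts of detected RNAs and had few or no counts. Of the 31 annotated genes outside the set that lie in hosts of its members, 19 have a read start and 10 had a count in either library. Snora81, in Eif4a2, had 0.970 counts in replicate 1 and 0 in replicate 2, while Gm26447 of the same host had 496.89 in replicate 1 and 326.5 in replicate 2. Snora62, in Rpsa, was listed at 0 in both libraries, while Gm26448 of the same host had 117 counts in replicate 1 and 112 in replicate 2. Snora61, in Snhg12, had 5.76 TPM in replicate 1 and 2.74 TPM in replicate 2, beside 32.2 TPM in replicate 1 and 31.3 TPM in replicate 2 for Snora44. In genes that host no member, Snora5c, in Tbrg4, had 8.89 TPM in replicate 1 and 2.11 TPM in replicate 2, and Snora23, in Ipo7, had 6.10 TPM in replicate 1 and 3.84 TPM in replicate 2. Snora35, in the brain serotonin receptor gene Htr2c, was listed at 0 in both libraries.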
